A study of Mus musculus with 8 samples.

Results

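The genes described here are 35 genes of endothelial identity and lung capillaries, chosen by symbol, and all 35 were found among the 23284 genes of the count-scale table. They were followed in the whole lung of wild-type (WT) C57BL/6 mice that had received a bone marrow transplant and had then spent 3 days in hypoxia. Each library is called a lung here and carries its replicate number. The labels do not say whether each came from a separate mouse. In 4 libraries the donor marrow was triply n/i/eNOS-/-, lacking the neuronal, inducible and endothelial nitric oxide synthases (NOS-null marrow). In the other 4 the donor marrow was WT (WT marrow). The recipient lung cells of both groups, endothelium included, carried intact synthase genes, so the genotype differed in marrow-derived cells alone. The share of donor cells in these lungs was not measured here. Without normoxic lungs in the data used here, no value below is a response to hypoxia.

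Endothelial cells line every vessel and hold the barrier between blood and air with junction proteins such as VE-cadherin. Their number, survival and leakiness are set by ligands acting on VEGF, Tie, apelin and adrenomedullin receptors, and their identity is kept by transcription factors of the ETS, SOX and KLF families. Mouse lung capillaries are built of the aerocytes, marked by Car4, Apln and Ednrb, and the general capillary cells, marked by Gpihbp1, Plvap and Aplnr. The endothelium makes nitric oxide itself, and also meets nitric oxide made by blood and immune cells that pass along it or leave through it.

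Values are on a scale near that of read counts (scaled reads), most of them whole multiples of a step that differs between libraries, and levels compared between genes are in FPKM, which corrects for gene length. Library sums ran from 7767065 to 8625142 scaled reads. Of the deleted genes, Nos2 stood at 13.3 to 43.5 scaled reads with NOS-null marrow against 87.4 to 115 with WT marrow, Nos3 at 177 to 219 against 171 to 207, and Nos1 at 0 to 1.088 against 0 in all 4 libraries, where 3 reads are worth 2.81 to 3.26 scaled reads. The log2 change of Nos2 was -1.84 (limma, adjusted p = 0.0221), and it did not pass without NOS-null marrow lung 2 or when any WT marrow lung was left out. On the first principal component of all tested genes, with 49.2% of the variance, NOS-null marrow lungs 1 to 4 lay at -57.7, -32.3, -3.35 and -1.41 and the WT marrow libraries at 17.7 to 27.2. NOS-null marrow lungs 1 and 2 thus stood apart from the rest. The defining markers of endothelium were abundant in every library, with VE-cadherin (Cdh5) at 5846 to 7586 scaled reads in NOS-null marrow lungs and 5743 to 6084 in WT marrow lungs.

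Most endothelial identity genes did not pass the test between the marrow groups, while endomucin (Emcn) and the apelin receptor (Aplnr) were lower with NOS-null marrow. All 35 genes passed the filter on low values and were tested with limma, adjusting over 14008 genes. At an adjusted p under 0.05, 2 were lower, where 2.18% of all tested genes were, and 0 were higher, where 1.87% of all tested genes were. The called share, 5.71% of the 35, lies near the 4.05% of all tested genes. At an unadjusted p under 0.05 there were 15 of 35 (7 higher and 8 lower), a share of 42.9% beside 26.6% of all tested genes. The 35 were chosen with earlier results of these data known, so this comparison of shares is no test. Without NOS-null marrow lung 1 there were 4 lower, with Tek and Sox17 added, and 1 (Emcn) without NOS-null marrow lung 2 or WT marrow lung 1 or 2. Leaving out NOS-null marrow lung 3 or 4 or WT marrow lung 4 gave 1 higher, Ptprb, Angpt1 or Plvap in that order. The groups did not overlap in 9 of 35 (25.7%), where this held for 17.1% of all tested genes. The NOS-null marrow range lay above in 4 (Ptprb, Ramp2, Mmrn2 and Tmem100), beside 7.82% of all tested genes, and below in 5 (Emcn, Aplnr, Nostrin, Ets1 and Angpt2), beside 9.29%. The median log2 change of the 35 was -0.01 and that of all tested genes was 0.00, while the median size of change was 0.26 beside 0.19. A gene's level in whole lung cannot tell fewer endothelial cells from less RNA per cell. Each log2 change subtracts the WT marrow mean from that with NOS-null marrow on the log2(scaled reads + 1) scale, on which changes of low genes come out too small, and SE is its standard error.

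**Figure D1:**
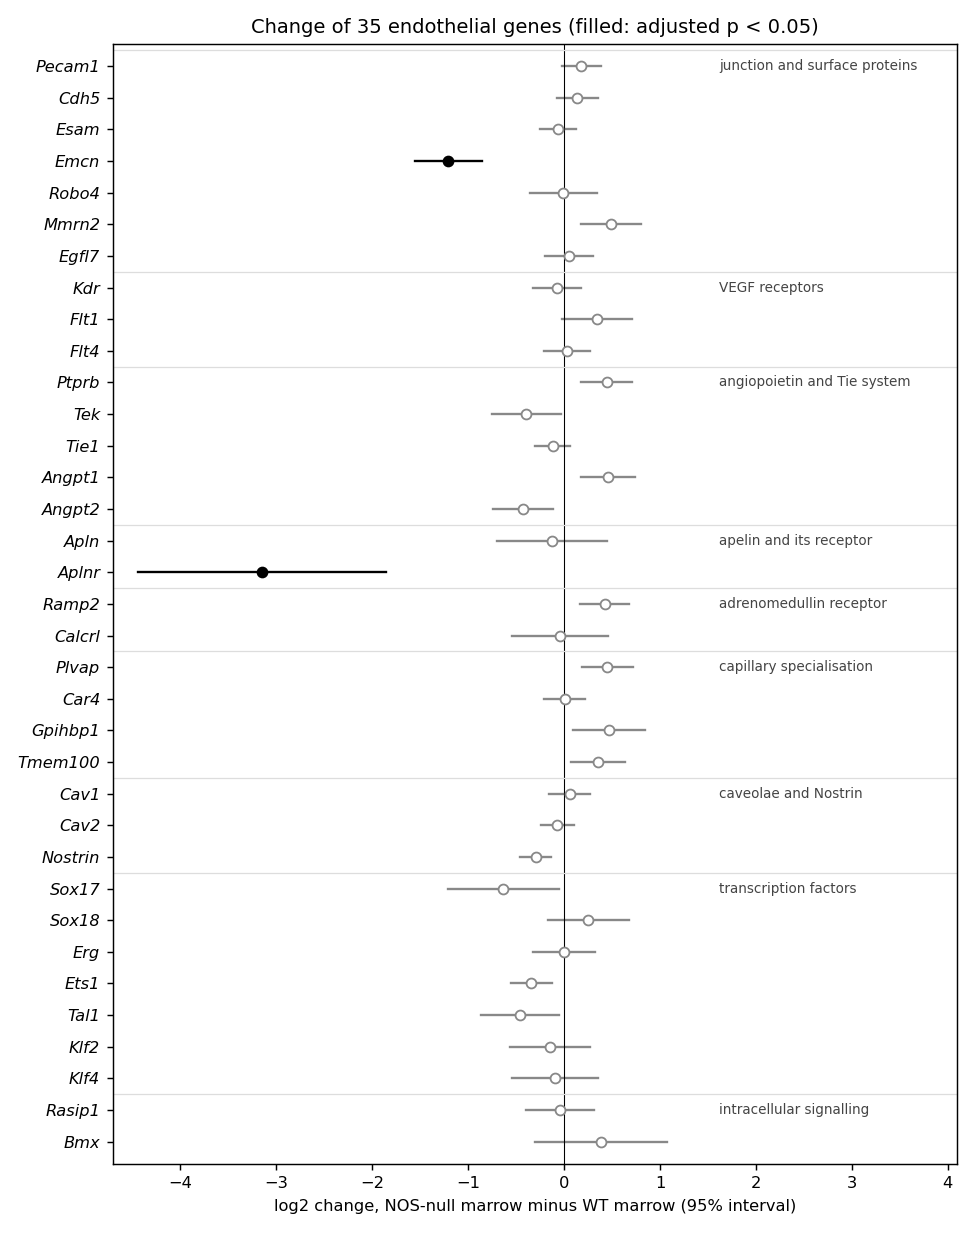
Log2 change, NOS-null marrow minus WT marrow, of the 35 endothelial genes ordered by role, with 95% intervals from the limma fit (4 libraries per group). Filled points passed an adjusted p of 0.05, and these are Emcn at -1.21 and Aplnr at -3.15.

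Among junction and surface proteins, Emcn fell and the other 6 did not pass. Endomucin is a sialomucin on the luminal surface of capillary and venous endothelium, and its gene lies on chromosome 3, 137341062 to 137431069 (GRCm38). Emcn stood at 379, 546, 677 and 604 scaled reads in lungs 1 to 4 with NOS-null marrow, against 1177, 1287, 1381 and 1151 in lungs 1 to 4 with WT marrow. Every NOS-null marrow lung was thus well below every WT marrow lung, with replicate 1 the lowest. The means were 551 ± 127 and 1249 ± 106 scaled reads (SD, n = 4 each), a log2 change of -1.21 (SE 0.16, adjusted p = 0.00721) or 0.43-fold (95% interval 0.34 to 0.55). Emcn passed under each of 18 alternative settings, with adjusted p = 0.000799 to 0.0339, and without both NOS-null marrow lungs 1 and 2 its log2 change was -0.96 (adjusted p = 0.00138).

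The promoter window of Emcn is shown as the regulatory sequence of a called gene, with that of Nostrin, the uncalled gene of smallest p, beside it. Aplnr, the other called gene, has no sequence shown here. RefSeq's table for GRCm38.p6 gave windows of 250 bases before to 50 after the start for 20 of the 35 genes. Capitals mark the letters CNGGAA on either strand, a short core of ETS factor sites, which 61.7% of all 32851 windows in the table hold.
Emcn, chr3:137340828-137341127, plus strand: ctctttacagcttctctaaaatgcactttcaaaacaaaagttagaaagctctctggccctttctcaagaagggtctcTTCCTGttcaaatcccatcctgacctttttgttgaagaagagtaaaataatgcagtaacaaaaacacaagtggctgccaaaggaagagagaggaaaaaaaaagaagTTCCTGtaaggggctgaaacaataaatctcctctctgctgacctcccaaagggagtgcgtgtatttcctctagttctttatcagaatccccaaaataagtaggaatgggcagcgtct
Nostrin, chr2:69135550-69135849, plus strand: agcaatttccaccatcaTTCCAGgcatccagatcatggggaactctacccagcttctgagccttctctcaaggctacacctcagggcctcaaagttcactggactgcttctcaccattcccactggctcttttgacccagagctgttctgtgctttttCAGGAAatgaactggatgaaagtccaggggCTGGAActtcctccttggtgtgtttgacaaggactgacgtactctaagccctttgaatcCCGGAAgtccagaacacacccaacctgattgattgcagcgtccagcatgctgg
The Emcn window held 2 such matches, beginning 173 and 67 bases before the start, and 1 match of the SOX core ACAAT beginning 49 bases before it, which 31.0% of all windows hold. The Nostrin window held 4 matches of CNGGAA, beginning 233, 92, 62 and 3 bases before the start, and the SOX letters were not in it. No match of CNGGAA overlapped ACAAT in either window.

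The other junction and surface genes differed little between groups, apart from Mmrn2. Pecam1, the platelet endothelial adhesion molecule that leukocytes and platelets also carry, averaged 9257 ± 997 scaled reads in NOS-null marrow lungs and 8128 ± 223 in WT marrow lungs (log2 change 0.18, SE 0.09, adjusted p = 0.227, and a log2 change of 0.05 when NOS-null marrow lungs 1 and 2 were both left out). Cdh5 averaged 6545 ± 853 and 5906 ± 173 (log2 change 0.14, 95% interval -0.07 to 0.35). For both genes, NOS-null marrow lungs 1 and 2 were the 2 highest libraries of the 8. The junction molecule gene Esam (-0.06, 95% interval -0.25 to 0.13), the guidance receptor gene Robo4 (-0.01, -0.36 to 0.34) and Egfl7, whose secreted product acts on the endothelial matrix (0.05, -0.20 to 0.31), had intervals that excluded a 1.5-fold change in both directions. Mmrn2, for multimerin 2 of the subendothelial matrix, stood at 578, 849, 727 and 569 scaled reads in lungs 1 to 4 with NOS-null marrow against 394, 526, 495 and 507 in lungs 1 to 4 with WT marrow. Its groups did not overlap, and its log2 change of 0.49 (SE 0.14) had an adjusted p of 0.0713.

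**Figure D2:**
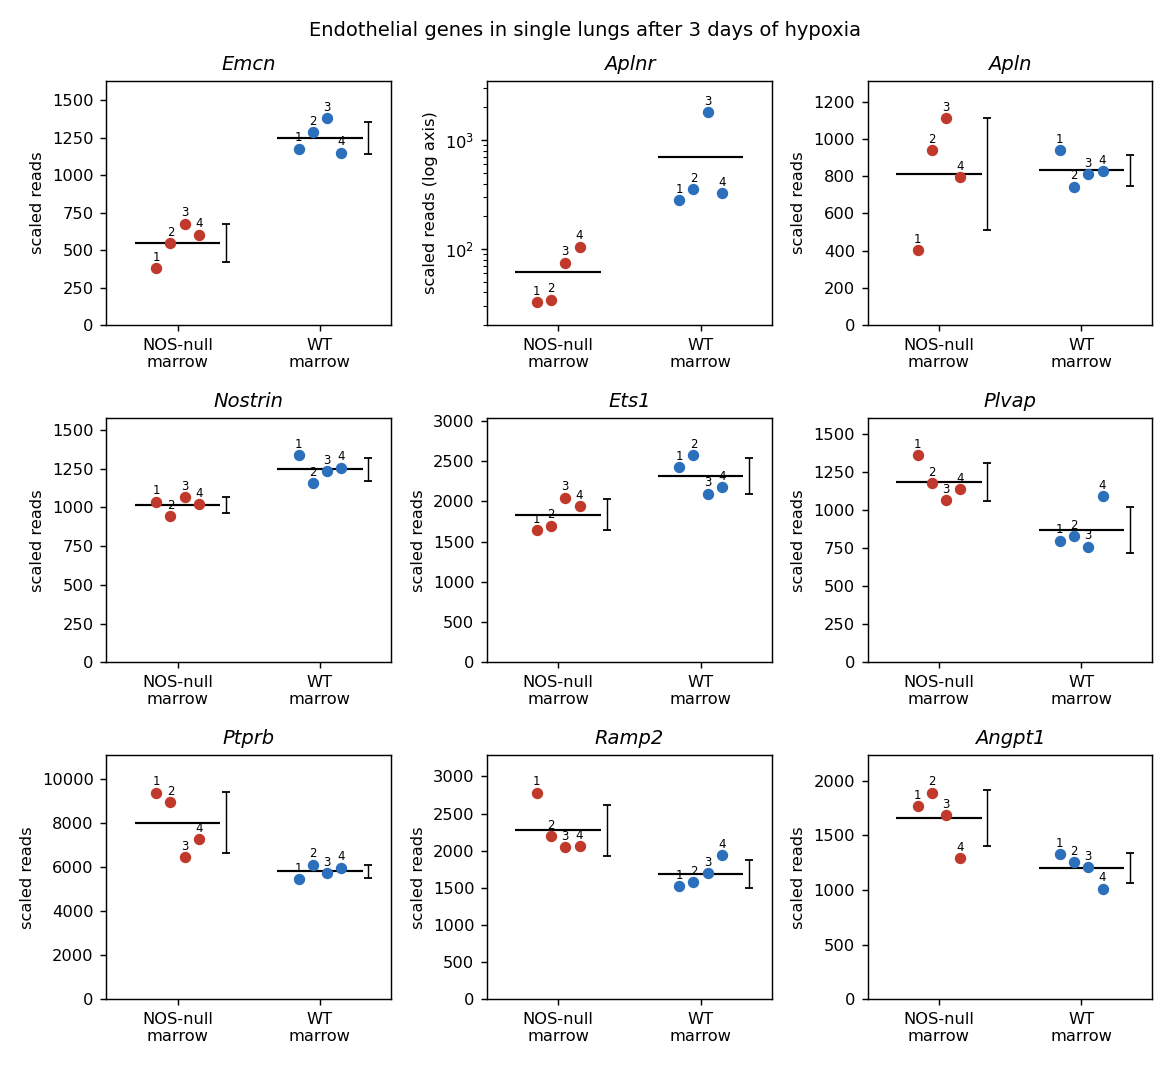
Scaled reads of 9 endothelial genes in each lung, NOS-null marrow (red) left of WT marrow (blue), with replicate numbers, the mean (line) and, except for Aplnr on its log axis, the SD (bar). Emcn, Aplnr, Nostrin, Ets1, Ptprb and Ramp2 are separated between groups, and of these Emcn and Aplnr alone were called. WT marrow lung 3 stands at 1819 scaled reads of Aplnr.

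The apelin pair was split, with the receptor lower and the ligand not called. Apelin is a peptide of endothelial cells that acts on the G protein-coupled receptor Aplnr and relaxes vessels in part through nitric oxide. Aplnr (chromosome 2, 85136360 to 85139923) stood at 32.8, 34.4, 74.9 and 105.5 scaled reads in lungs 1 to 4 with NOS-null marrow, against 282, 355, 1819 and 324 in lungs 1 to 4 with WT marrow. The groups did not overlap, NOS-null marrow lungs 1 and 2 were the lowest, and WT marrow lung 3 stood far above the other 3 WT marrow lungs. The log2 change was -3.15 (SE 0.58, adjusted p = 0.0245), or 0.11-fold with a 95% interval of 0.05 to 0.28. Without WT marrow lung 3 it was -2.52 (adjusted p = 0.0326), and without both NOS-null marrow lungs 1 and 2 it was -2.46 (adjusted p = 0.0801). The call was also lost without NOS-null marrow lung 2 (adjusted p = 0.0796), without WT marrow lung 1 or 2 (0.0641 for each) and with robust moderation (0.053).

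Apln itself stood at 403, 938, 1111 and 795 scaled reads in lungs 1 to 4 with NOS-null marrow and at 939.9, 745, 813 and 826 in lungs 1 to 4 with WT marrow. NOS-null marrow lung 1 was the lowest and replicate 3 the highest of the 8. The log2 change was -0.12 (95% interval -0.69 to 0.45, adjusted p = 0.786), and 0.18 without NOS-null marrow lung 1. On the FPKM scale the ratio of ligand to receptor was 8.60 to 31.2 with NOS-null marrow and 0.51 to 3.80 with WT marrow, and the groups did not overlap. This ratio reuses the Aplnr values that were already apart, so it is not a separate result. WT marrow lung 3, highest for Aplnr, was not apart for Apln.

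None of the 5 genes of the angiopoietin and Tie system passed, with positive log2 changes for Angpt1 and Ptprb and negative ones for Angpt2, Tek and Tie1. Angpt1, the agonist of the receptor Tie2 made by cells around the vessel, stood at 1766, 1891, 1682 and 1292 scaled reads in lungs 1 to 4 with NOS-null marrow against 1329, 1252, 1211 and 1013 in lungs 1 to 4 with WT marrow. Replicates 1 to 3 of NOS-null marrow lay above every WT marrow lung, and replicate 4 among them. The log2 change was 0.46 (SE 0.13, adjusted p = 0.0645), with an adjusted p of 0.0206 without NOS-null marrow lung 4. Angpt2, which competes with Angpt1 and is stored in endothelial cells, stood at 126, 185, 189 and 169 scaled reads in lungs 1 to 4 with NOS-null marrow against 226, 241, 232 and 195 in lungs 1 to 4 with WT marrow. Its groups did not overlap, by a narrow margin (log2 change -0.43, SE 0.14, adjusted p = 0.0964). The ratio of Angpt1 to Angpt2 in FPKM was 8.21, 5.98, 5.21 and 4.49 in lungs 1 to 4 with NOS-null marrow and 3.05 to 3.45 with WT marrow, so every NOS-null marrow lung had the higher ratio. This ratio reuses the values of Angpt1 and Angpt2 above, and those of Angpt2 were already apart, so it is not a separate result.

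The Tie receptors and their phosphatase did not pass either. Tek, which encodes Tie2, stood at 2767, 1519, 1690 and 2170 scaled reads in lungs 1 to 4 with NOS-null marrow against 2437 to 2755 with WT marrow. NOS-null marrow lung 1 was the highest of the 8 and the other 3 lay below every WT marrow lung. The log2 change was -0.39 (adjusted p = 0.158), and without NOS-null marrow lung 1 it was -0.55 (adjusted p = 0.0314). Ptprb, the phosphatase VE-PTP that dampens Tie2 and VE-cadherin signalling, stood at 9368, 8950.2, 6441 and 7263 scaled reads in lungs 1 to 4 with NOS-null marrow against 5431, 6106, 5733 and 5964 in lungs 1 to 4 with WT marrow. All NOS-null marrow lungs were higher (log2 change 0.45, SE 0.12, adjusted p = 0.0598, and 0.0304 without NOS-null marrow lung 3). The orphan receptor gene Tie1 averaged 1224 ± 69.6 and 1332 ± 125 (log2 change -0.12, 95% interval -0.31 to 0.07).

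Receptors for VEGF did not pass. Kdr, the main signalling receptor for VEGF-A, averaged 2797 ± 352 scaled reads in NOS-null marrow lungs and 2945 ± 350 in WT marrow lungs (log2 change -0.08, 95% interval -0.32 to 0.17). Flt1, which binds VEGF-A and largely holds it back from Kdr, averaged 2276 ± 564 and 1769 ± 286 (0.35, -0.02 to 0.71), and NOS-null marrow lung 1 alone held 3100. Without that replicate the log2 change of Flt1 was 0.19 (adjusted p = 0.365). Flt4, a receptor for VEGF-C and VEGF-D that is prominent on lymphatic vessels, was at 202 to 210 scaled reads in all 4 NOS-null marrow lungs and at 182 to 246 with WT marrow (0.03, -0.21 to 0.27).

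In the adrenomedullin receptor, the co-receptor gene and the receptor gene differed in pattern. Ramp2 gives the calcitonin receptor-like receptor Calcrl its affinity for adrenomedullin, a vessel-stabilising peptide. Ramp2 stood at 2783, 2201, 2048 and 2059 scaled reads in lungs 1 to 4 with NOS-null marrow against 1526, 1581, 1694 and 1940 in lungs 1 to 4 with WT marrow. All NOS-null marrow lungs were higher (log2 change 0.43, SE 0.11, adjusted p = 0.0601). Ramp2 shares an exon with its neighbour Vps25 on the same strand, so reads there could belong to either gene. Calcrl stood at 18508, 13769.9, 15665 and 15102 in lungs 1 to 4 with NOS-null marrow against 21082, 20285, 9584 and 16607 in lungs 1 to 4 with WT marrow, and its groups overlapped throughout (-0.04, 95% interval -0.54 to 0.45). The lowest Calcrl level was in WT marrow lung 3, the lung with the highest Aplnr.

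Genes of capillary specialisation did not pass. The log2 change was positive for each of the 4, beside 7017 of the 14008 tested genes. That of Car4 was negative after quantile normalisation. Plvap, which builds the diaphragms of endothelial pores and vesicles, stood at 1359.5, 1176, 1067 and 1135 scaled reads in lungs 1 to 4 with NOS-null marrow against 799, 829, 759.8 and 1093 in lungs 1 to 4 with WT marrow. WT marrow lung 4 reached the NOS-null marrow range and the other 3 lay below it (log2 change 0.45, SE 0.12, adjusted p = 0.0597, and 0.0320 without WT marrow lung 4). Gpihbp1, which anchors lipoprotein lipase to capillaries, stood at 2203, 2065, 1344 and 1325 in lungs 1 to 4 with NOS-null marrow against 1126 to 1360.2 with WT marrow. NOS-null marrow lungs 1 and 2 were the highest of the 8 (log2 change 0.47, adjusted p = 0.116), and leaving out both gave 0.13. Tmem100, a target of endothelial BMP signalling, was at 4794 in NOS-null marrow lung 1 and 3236 to 3376 in the other 3, against 2595 to 3033 with WT marrow (0.36, adjusted p = 0.116). Its log2 change was 0.22 without that lung and 0.20 when lungs 1 and 2 with NOS-null marrow were both left out. Car4, the membrane carbonic anhydrase of aerocytes, averaged 1148 ± 124 and 1140.1 ± 97.1 scaled reads (0.01, 95% interval -0.21 to 0.22).

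Of the caveolar genes, Cav1 and Cav2 did not differ beyond the spread between lungs, and Nostrin narrowly missed the threshold. Caveolin-1 forms the caveolae that fill lung endothelium and binds endothelial nitric oxide synthase. Cav1 averaged 15227 ± 1449.9 scaled reads in NOS-null marrow lungs and 14590.5 ± 882 in WT marrow lungs (log2 change 0.06, 95% interval -0.16 to 0.27), and Cav2 averaged 7247 ± 414 and 7594 ± 421 (-0.07, -0.24 to 0.11). Nostrin, whose product moves endothelial nitric oxide synthase from the membrane, stood at 1037, 942, 1066 and 1022 in lungs 1 to 4 with NOS-null marrow against 1335, 1159, 1232 and 1257 in lungs 1 to 4 with WT marrow. Every NOS-null marrow lung was below every WT marrow lung, and the difference was small and even (-0.29, SE 0.07, adjusted p = 0.0521). The interval of its fold change was 0.73 to 0.91.

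None of the 7 transcription factor genes passed. The log2 change was negative for 6 of the 7, beside 6991 of the 14008 tested genes. That of Erg was -0.0020 as deposited and slightly positive after median of ratios scaling. Ets1, an ETS factor of endothelium that lymphocytes also express, stood at 1641, 1700.3, 2048 and 1938 scaled reads in lungs 1 to 4 with NOS-null marrow against 2425, 2572, 2097 and 2175 in lungs 1 to 4 with WT marrow. Its groups did not overlap (log2 change -0.34, SE 0.10, adjusted p = 0.0684). Erg, the ETS factor most tied to endothelial identity, averaged 243 ± 49.2 and 240.3 ± 23.7 (95% interval -0.32 to 0.32). Sox17, a factor of arterial endothelium, stood at 841, 323, 424 and 383 in lungs 1 to 4 with NOS-null marrow against 825, 714, 546 and 790.3 in lungs 1 to 4 with WT marrow. NOS-null marrow lung 1 was the highest of the 8, and the other 3 were below every WT marrow lung. Over all 8 lungs its log2 change was -0.63 (adjusted p = 0.158), without NOS-null marrow lung 1 it was -0.92 (adjusted p = 0.0109), and without both replicates 1 and 2 it was -0.82 (adjusted p = 0.0257). Its relative Sox18 averaged 613 ± 36.7 and 534 ± 187 (0.26, adjusted p = 0.402), with a log2 change of 0.12 without WT marrow lung 2 and 0.47 without WT marrow lung 4.

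The remaining factors overlapped between groups. Tal1, which acts in endothelium and, more strongly, in red cell and platelet precursors, averaged 111 ± 23.0 scaled reads in NOS-null marrow lungs and 151 ± 26.7 in WT marrow lungs (log2 change -0.46, adjusted p = 0.152). The flow-induced factors Klf2 and Klf4 were uneven in both groups. Klf2 was at 2005 in NOS-null marrow lung 1 and 1262 to 1325 in the other 3, against 1336, 1265, 2058 and 1814 in lungs 1 to 4 with WT marrow. Klf4 was at 2627 in NOS-null marrow lung 1 and 1652 to 1727 in the other 3, against 1607, 1562, 2474 and 2640.2 in lungs 1 to 4 with WT marrow. Thus the same 3 lungs, NOS-null marrow lung 1 and WT marrow lungs 3 and 4, were the highest for both genes. The log2 changes were -0.14 (adjusted p = 0.655) for Klf2 and -0.09 (adjusted p = 0.797) for Klf4. That of Klf2 ran from -0.30 without NOS-null marrow lung 1 to -0.02 without WT marrow lung 3.

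Of the intracellular signalling genes, Rasip1, an effector of small GTPases needed for vessel lumens in the mouse, averaged 663 ± 86.6 and 692 ± 145 scaled reads (log2 change -0.04, 95% interval -0.40 to 0.31). Bmx, a kinase gene of arterial endothelium, was at 285 in NOS-null marrow lung 1 and at 95.6 to 102 in the other 3, against 87.9 to 113 with WT marrow. Its log2 change of 0.39 (adjusted p = 0.441) was 0.01 without NOS-null marrow lung 1. Rasip1 ranged from 545 to 741 against 486 to 810.1, so both genes overlapped between the groups.

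**Figure D3:**
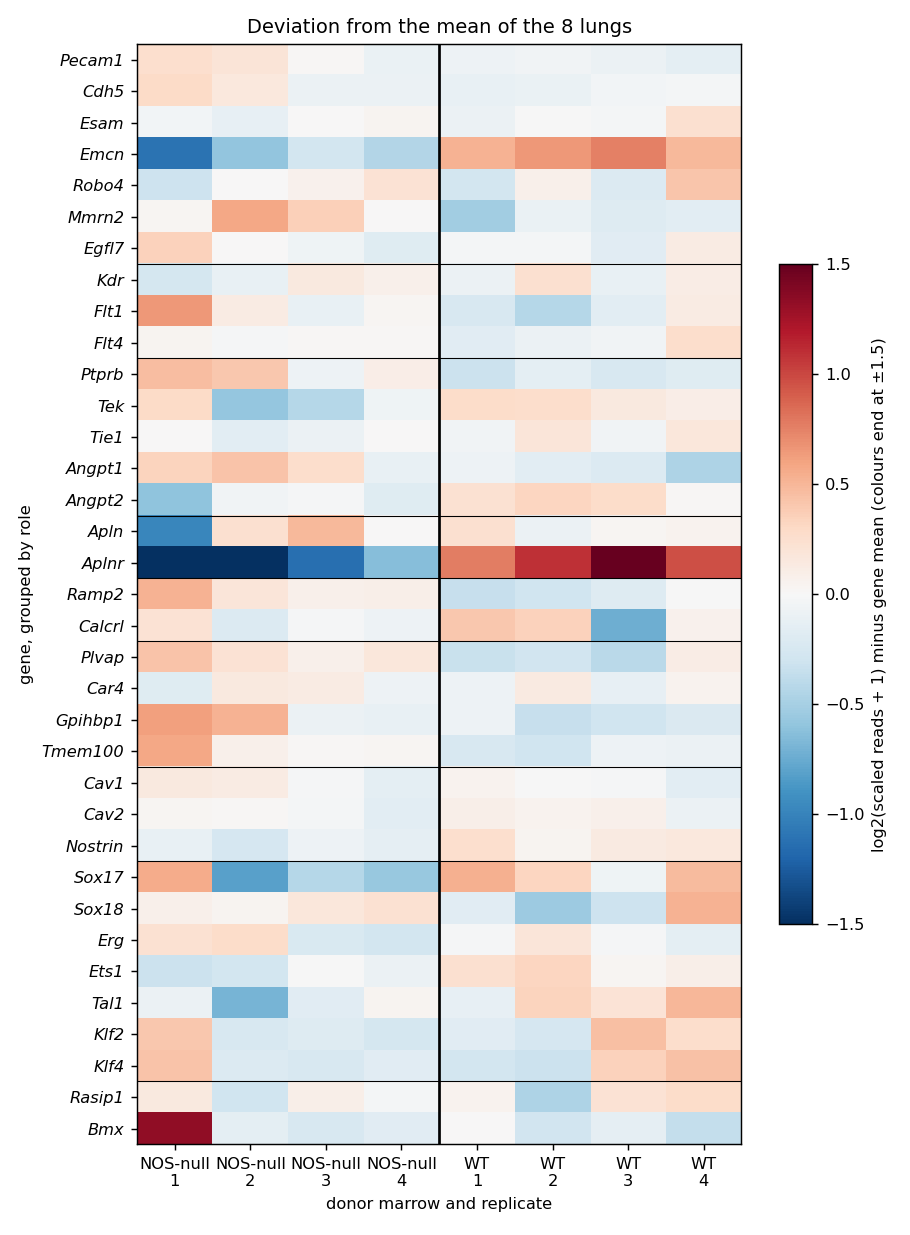
Deviation of each gene from its mean over the 8 lungs, in log2(scaled reads + 1), with NOS-null marrow lungs 1 to 4 left of WT marrow lungs 1 to 4 and genes grouped by role (colours end at 1.5 in either direction). Emcn and Aplnr are low in all 4 NOS-null marrow lungs, while Bmx, Flt1 and Tmem100 are high in NOS-null marrow lung 1.

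The spread among lungs was described without a test. The median SD of the 35 genes on the log2 scale was 0.23 in NOS-null marrow lungs and 0.15 in WT marrow lungs, beside 0.19 and 0.16 over all tested genes. The SD was larger with NOS-null marrow in 23 of the 35 (65.7%), beside 60.4% of all tested genes. NOS-null marrow lung 1 was the highest of the 8 lungs for 13 genes, among them Pecam1, Cdh5, Flt1, Tek, Gpihbp1 and Bmx. The same lung was the lowest for 8 genes, among them Emcn, Aplnr, Apln, Angpt2, Kdr and Ets1. It was therefore extreme in 21 of the 35, whereas NOS-null marrow lung 3 was extreme in 1. The same count over all tested genes was not made. On their first principal component NOS-null marrow lung 1 also lay farthest out, at -57.7. Leaving out both NOS-null marrow lungs 1 and 2 gave smaller log2 changes of 0.24 for Ptprb, 0.30 for Angpt1, 0.29 for Ramp2, 0.35 for Plvap and 0.14 for Flt1.

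Per length, 9 of the 35 held the same rank in both groups, with a largest difference of 7 ranks. Cav1 was the highest at 776 ± 73.7 FPKM in NOS-null marrow lungs and 744 ± 45.2 FPKM in WT marrow lungs. Bmx, Flt4 and Tal1 were the lowest with WT marrow, at 4.22 ± 0.48, 4.32 ± 0.60 and 4.57 ± 0.80 FPKM. In the WT marrow order, 27 of 34 neighbouring pairs had overlapping ranges, so most neighbours did not differ beyond their spread. Aplnr averaged 2.198 ± 1.24 FPKM with NOS-null marrow, the lowest mean of the 35, and 24.7 ± 26.6 FPKM with WT marrow, the 28th of the 35. Emcn averaged 52.6 ± 12.2 FPKM with NOS-null marrow, where it ranked 19th, and 119 ± 10.02 FPKM with WT marrow, where it ranked 13th. Summed over the 35 genes, levels were 4329.9 to 5436 FPKM in NOS-null marrow lungs and 4384 to 4620 FPKM in WT marrow lungs, NOS-null marrow lung 1 being the highest.

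**Figure D4:**
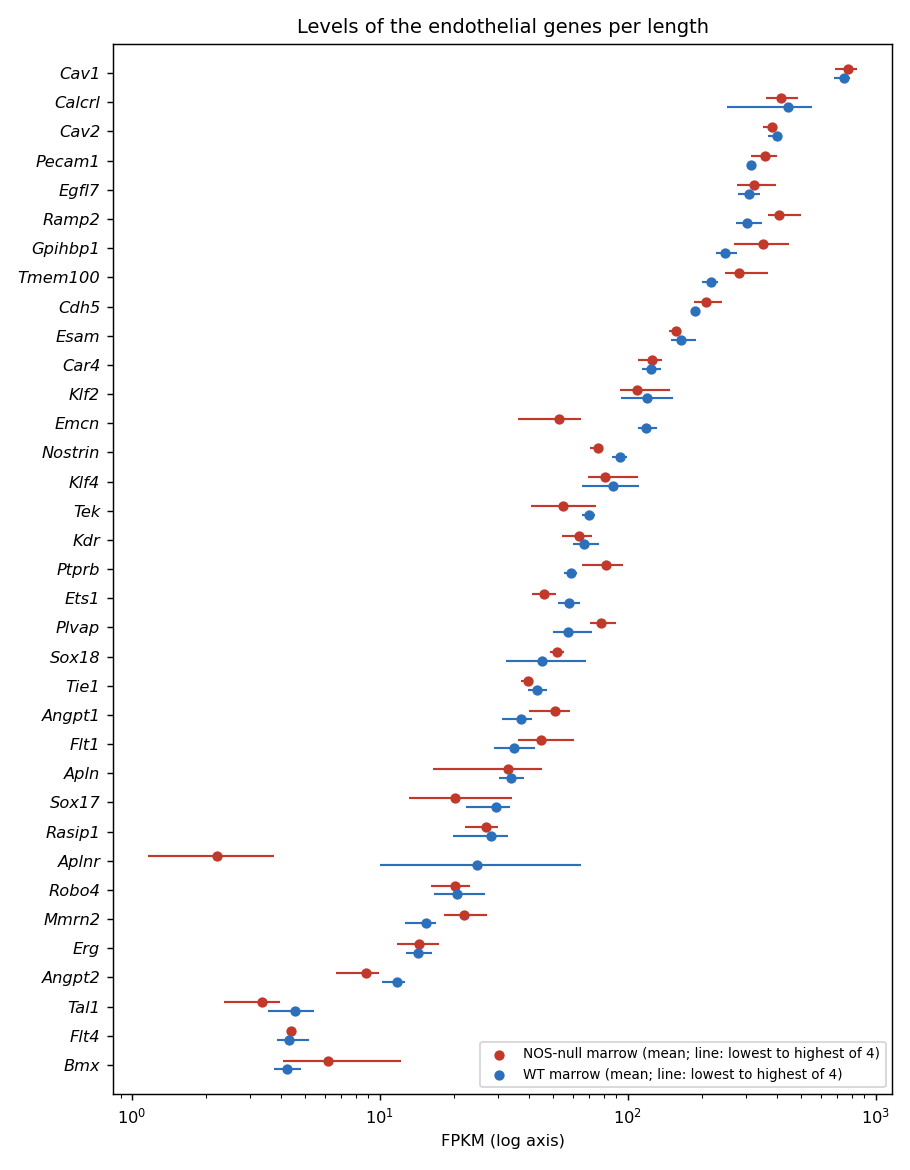
Level of each endothelial gene in FPKM (log axis), NOS-null marrow (red) above WT marrow (blue), as the mean with a line from the lowest to the highest of 4 lungs, ordered by the WT marrow mean. Aplnr at 2.198 against 24.7 FPKM and Emcn at 52.6 against 119 FPKM are the called genes.

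Other genes of the vessel wall were read from 13 lists of general knowledge, chosen with earlier results of these data known. They held 124 tested genes that are not among the 35. Of these, 7 were higher (5.65%, beside 1.87% of all tested genes), 6 were lower (4.84%, beside 2.18%) and 111 did not pass. Because of that choice, these shares do not test vascular genes as a set. Leaving out 1 library gave 0 to 14 higher and 1 to 6 lower, and leaving out both NOS-null marrow lungs 1 and 2 gave 2 higher (Slc6a2 and Vwf) and 1 lower (Cxcl12). The counts by list below include any of the 35 that a list holds. Among 11 general capillary genes, Aplnr and the fatty acid transporter gene Cd36, which macrophages also express, were lower, and 9 did not pass. Cd36 averaged 10842 ± 742 scaled reads in NOS-null marrow lungs and 14818 ± 1589.5 in WT marrow lungs (log2 change -0.45, adjusted p = 0.0421). Among 13 tested aerocyte genes, 3 were higher and 10 did not pass. The 3 were Cyp4b1 (0.63, adjusted p = 0.0296), which airway club cells also express, Fibin (0.59, adjusted p = 0.0316) and Ednrb, for a receptor of endothelin (0.44, adjusted p = 0.0457). The median log2 change was 0.07 for the general capillary list and 0.12 for the aerocyte list, beside 0.00 for all tested genes.

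The arterial list held a gene that was lower and the venous list genes that were higher, and the difference between the lists was not tested. Positive log2 changes numbered 11 of 19 in the arterial list (median 0.03) and 7 of 11 in the venous list (median 0.15). Over all tested genes, 7017 of 14008 were positive. Of 19 arterial genes, Cxcl12, a chemokine gene also made by stromal cells, was lower at 2504, 1784, 2552 and 2792 scaled reads in lungs 1 to 4 with NOS-null marrow against 4467 to 4727 with WT marrow (log2 change -0.95, adjusted p = 0.00722), and 18 did not pass. Of 11 tested venous genes, 2 were higher and 9 did not pass. The noradrenaline transporter gene Slc6a2 stood at 568, 393, 249 and 273 in lungs 1 to 4 with NOS-null marrow against 127 to 150 with WT marrow (1.33, SE 0.22, adjusted p = 0.0183). Vwf, for the clotting factor carrier of endothelium and platelets, was at 3638 to 5378 against 2011 to 3009.8 (0.88, adjusted p = 0.0191). The groups did not overlap for any of these 3 genes. Of 9 tested lymphatic genes, the hyaluronan receptor gene Lyve1, which some macrophages share, was higher (0.65, adjusted p = 0.0415) and the chemokine gene Ccl21a, whose near-identical copies make its value uncertain, was lower (-0.55, adjusted p = 0.0457).

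Pan-endothelial and signalling lists held few called genes. Of 28 pan-endothelial genes, 17 had a positive log2 change and 11 a negative one (list median 0.05). At the threshold 25 did not pass and 3 were lower. These were the endothelial cell surface receptor gene Ecscr (-0.50, adjusted p = 0.0190), the tetraspanin-like gene Tm4sf1 (-0.42, adjusted p = 0.0332) and Mcam (-0.37, adjusted p = 0.0436), an adhesion molecule gene that pericytes and smooth muscle share. Ecscr and Mcam share exons with genes on the opposite strand, and the strand of the libraries is not given in the sources used here. Of 7 ligands and co-receptors of the VEGF system, Figf, now Vegfd, was higher (0.67, adjusted p = 0.0316). The other 6 did not pass, and their log2 changes were negative (list median -0.09). None of the 14 Notch pathway genes (Rbpj 0.21, Notch1 0.26), 17 junction genes (Ctnnb1 -0.34, groups not overlapping), 8 caveolar genes (Sdpr, now Cavin2, 0.29) or 16 tested ETS, SOX and KLF genes (Klf6 0.31) passed. Among 12 tip cell and sprouting genes Mcam was lower, and among 7 tested genes of the adrenomedullin and apelin system Aplnr was lower. Of the 13 called genes outside the 35, Cxcl12 passed in each fit that left out 1 library. The other 12 did not pass without NOS-null marrow lung 2 or without WT marrow lung 1, 2 or 3 (adjusted p up to 0.134). In addition 8 of them, Tm4sf1, Mcam, Cyp4b1, Fibin, Ednrb, Lyve1, Ccl21a and Figf, did not pass without WT marrow lung 4. Cd36 and Ednrb did not pass without NOS-null marrow lung 1, nor Mcam, Cd36 and Ednrb without NOS-null marrow lung 3. When NOS-null marrow lungs 1 and 2 were both left out, the 10 called genes other than Cxcl12, Slc6a2 and Vwf did not pass, with adjusted p from 0.0646 for Ecscr to 0.170 for Ednrb.

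**Figure D5:**
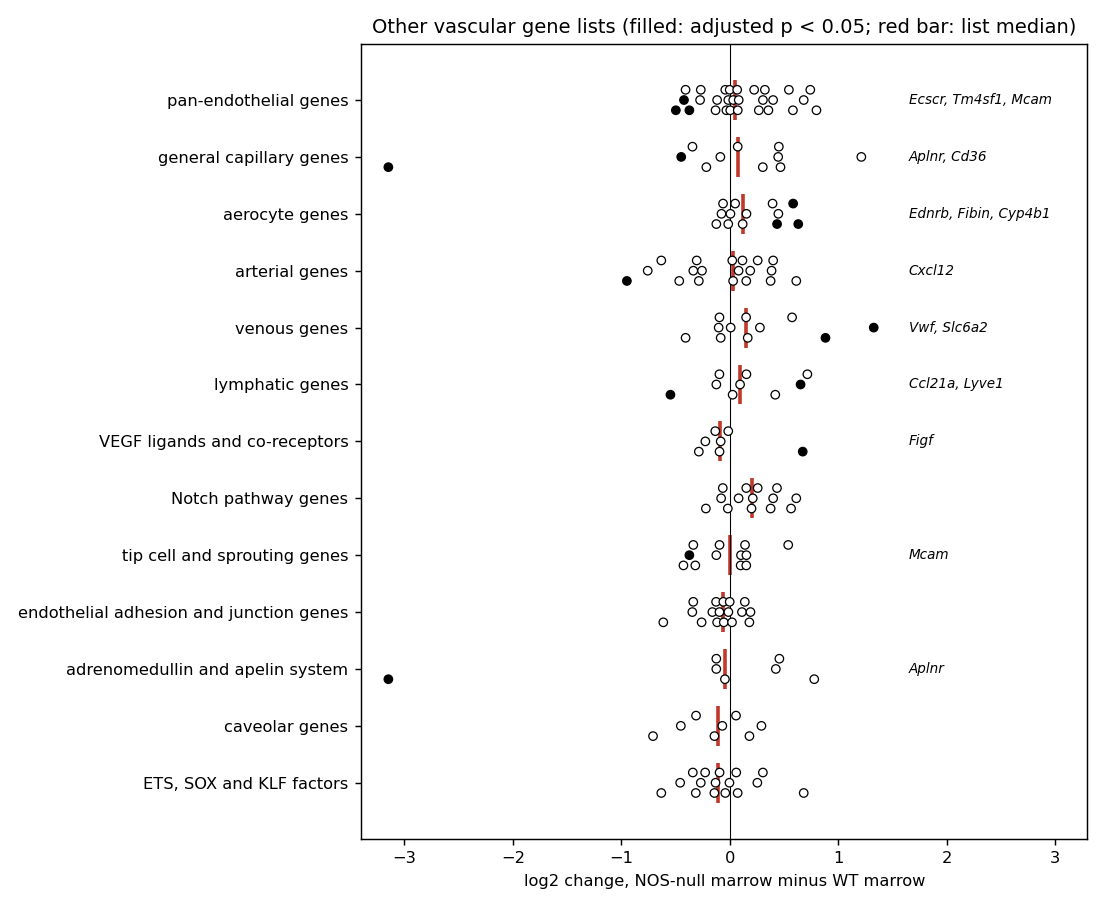
Log2 change, NOS-null marrow minus WT marrow, of the tested genes of 13 vascular lists, each circle a gene, filled where the adjusted p was under 0.05, with called genes named at the right and the list median as a red bar. List medians run from -0.11 to 0.21, and Aplnr at -3.15 lies far from the other general capillary genes.

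Markers of other cells were read beside these results. All 4 erythroid markers were higher, with summed levels of 2325 to 2992 FPKM in NOS-null marrow lungs and 1584 to 1856 FPKM in WT marrow lungs. Of 4 smooth muscle markers 3 were lower, and the 4 summed to 916 to 1199.5 FPKM against 1856 to 2145 FPKM. Of 4 pericyte markers 1 (Higd1b) was lower, and the 4 summed to 188 to 249 FPKM against 246 to 301 FPKM. Log2 changes of the pericyte markers were negative for 3 and positive for 1, Pdgfrb (0.20). None of 4 leukocyte markers passed, with sums of 308 to 1165 FPKM against 296 to 469.9 FPKM. Nor did any of 4 platelet markers, with sums of 71.4 to 218 FPKM against 119 to 163 FPKM. NOS-null marrow lung 1 was the highest of the 8 for all 4 leukocyte markers and for 3 of the 4 platelet markers. It held 3313 scaled reads of Ptprc and 4176 of Coro1a, against 1270 to 1823 and 1177 to 1759.6 in the other NOS-null marrow lungs and 902 to 1581 and 1051 to 1696 in WT marrow lungs. It held 128 scaled reads of the platelet gene Gp9, against 16.8 to 33.7 in the other NOS-null marrow lungs and 36.5 to 66.5 in WT marrow lungs. Alveolar type 1 markers summed to 3559 to 3799 FPKM against 3276 to 3665 FPKM, with none of 4 called. No alveolar type 2, club cell, cardiomyocyte, mesothelial or proliferation marker passed. No listed marker of these cells was at 0 in every library. The part of these cells in the levels of Pecam1, Ets1, Tal1, Angpt1, Vwf, Cd36, Cxcl12 and Mcam was not tested.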

How the data were processed

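Per the labels' protocols, bead-purified mRNA was made into KAPA libraries and sequenced as 75 bp single reads. The submitters' processing notes name CASAVA 1.8.2, TopHat2 2.0.13, Bowtie2 2.2.3, SAMtools 0.1.19, Cufflinks 2.2.1 and mm10. Annotation, settings and strand were not given in the sources read. How the authors scaled the signal values of the deposited count-scale table is not recorded in its header. The column style is that of Cuffnorm, and the values look like read counts divided by 1 size factor per library, which is inferred from the values. The FPKM table was also deposited by the authors, and most of its genes keep a fixed ratio to the count-scale table. Of the positive values, 98.6 to 98.8% per library were within 0.05 of whole multiples of 1 read's value, but 10 to 16 fell below that value, so no count model was used.

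After adding 1 and taking log2, limma (3.58.1, trend, R 4.3.3) tested the 14008 of 23284 genes that reached 10 scaled reads in 4 or more libraries, with no other term. Calls used an adjusted p (Benjamini-Hochberg, all tested genes) below 0.05, and intervals are 95% intervals. Titles gave the groups, since the design text describes both as NOS-null marrow recipients. The labels name mice but not how replicates relate, so a p-value here covers the spread among these samples, which may be technical. Members and lists were chosen with earlier results of these data known. Values per lung are given for called genes, the 6 next by p and the partner of a called ligand or receptor, and for other members where lungs differ. Of each related list the called genes (at most 4) or a gene or pair of highest mean are named. Positions are from GRCm38, the assembly of mm10. Angpt1, Egfl7, Sox17 and Rasip1 share exons with genes on the opposite strand and Ramp2 with a neighbour, so their values are uncertain. Alternatives were other pseudocounts (0.5 and 5), filters, scalings, the FPKM table, robust moderation, a replicate block and leaving out libraries.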

Additional observations from a re-analysis of the deposited data

Results flagged for a closer look

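In 112 groups of 4 libraries, 1 library lay far from the other 3 in 7 cases, where chance gives about 1 in 20 groups. Aplnr stood at 1819 scaled reads in WT marrow lung 3, against 282 to 355 in the other WT marrow lungs. NOS-null marrow lung 1 accounts for 5 of the 7. It held 285 scaled reads of Bmx, against 95.6 to 102 in the other NOS-null marrow lungs. Tmem100 stood at 4794 in it, against 3236 to 3376. For Klf2 it held 2005, against 1262 to 1325. For Klf4 it held 2627, against 1652 to 1727. Cd36 was low in it, at 9735 against 11109.7 to 11267. Nos1 stood at 1.088 in NOS-null marrow lung 4, about 1 read, and at 0 in the others.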

How the results depend on the processing

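Over 18 alternative settings and the 35 endothelial genes, 581 of 630 values kept their direction and their side of the threshold. The genes called lower numbered 1 with robust moderation (Emcn) and 1 to 4 when 1 library was left out. Those called higher numbered 0 to 1 when 1 library was left out and 2 (Ptprb and Ramp2) with quantile normalisation. Over all genes, 71 to 798 were called when 1 library was left out, and 181 when NOS-null marrow lungs 1 and 2 were both left out. Related vascular genes called lower numbered 3 without a filter, 10 with a filter of 50, 10 with quantile normalisation, 1 to 6 when 1 library was left out, and 1 without both these lungs or with the replicate block. Those called higher numbered 0 to 14 when 1 library was left out (14 without NOS-null marrow lung 4), 2 without both these lungs and 3 with the replicate block. The cause was not tested. Whether replicate numbers pair the libraries could not be settled, and the main fit took them as unpaired. Of the 4 same-numbered pairs, 2 had a correlation of deviations over 0.1 (range -0.0027 to 0.169). Of the 4 NOS-null marrow libraries, 2 correlated best with their own number. Genes above 0 numbered 17583 and 17621 in the replicate 4 libraries, against 16778 to 17058 in the others. With the replicate block 135 genes were called, 1 of the 35 was higher (Angpt1, adjusted p = 0.043) and 2 were lower.

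Some uncalled genes changed sign, and among them Bmx had a log2 change of 0.39 in the main fit. Leaving out both NOS-null marrow lungs 1 and 2 gave a log2 change of -0.0139 for Cdh5, 0.137 for Robo4, -0.0961 for Egfl7, 0.0741 for Kdr, 0.183 for Apln, -0.0523 for Cav1, 0.00658 for Rasip1 and -0.0118 for Bmx. Quantile normalisation gave -0.0421 for Car4 and -0.0257 for Cav1, and median of ratios scaling 0.000210 for Erg. When 1 library was left out the range was -0.0986 to 0.0125 for Esam, -0.0986 to 0.128 for Robo4, -0.0551 to 0.121 for Egfl7, -0.0249 to 0.119 for Flt4, -0.305 to 0.182 for Apln, -0.295 to 0.0843 for Calcrl, -0.0409 to 0.0680 for Car4, -0.0953 to 0.0911 for Erg, -0.252 to 0.0375 for Klf4 and -0.205 to 0.0464 for Rasip1. Nostrin passed with a filter of 50 (adjusted p = 0.0478) and with quantile normalisation (0.0372), and Ctnnb1 with both (0.0463 and 0.0473) and with robust moderation (0.0465). Without changing sign, the range when 1 library was left out also spread over 1.5 times for Cdh5 (0.0656 to 0.191), Kdr (-0.136 to -0.0019), Tie1 (-0.158 to -0.0767), Cav1 (0.0164 to 0.118), Cav2 (-0.108 to -0.0280) and Tal1 (-0.573 to -0.299). The same held for Pecam1 (0.129 to 0.244), Flt1 (0.189 to 0.446), Tek (-0.555 to -0.266), Angpt1 (0.377 to 0.572) and Angpt2 (-0.491 to -0.297). So it did for Mmrn2 (0.377 to 0.569), Ramp2 (0.324 to 0.495), Gpihbp1 (0.340 to 0.585) and Tmem100 (0.221 to 0.410). It also held for Sox17 (-0.922 to -0.463), Sox18 (0.115 to 0.473), Klf2 (-0.301 to -0.0155) and Bmx (0.0083 to 0.530). Having 4 lungs per group limits the precision.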

Other observations

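Promoter windows were searched for further short motifs on both strands. Among 26 windows of 20 endothelial genes, 80.8% held the ETS core CNGGAA, beside 61.7% of all windows, and several windows belong to the same gene. The KLF core CCACCC was in 30.8% of the endothelial windows and 31.5% of all windows, and the core ACGTG of HIF sites in 11.5% and 19.6%. On the FPKM scale the ratio of Flt1 to Kdr was 1.12 in NOS-null marrow lung 1 and 0.50 to 0.70 in the other 3 NOS-null marrow lungs, against 0.38 to 0.60 with WT marrow. The ratio of Tie1 to Tek was 0.56 to 0.91 with NOS-null marrow and 0.54 to 0.71 with WT marrow.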
